A study of Mus musculus with 15 samples.

Results

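The 3 arrays of prostate epithelial lines transformed with NeuT were set against the 3 arrays of primary prostate epithelial cultures without a transduced gene, on every gene that had a probe set of its own. The comparison took 6 of the 15 arrays of the series and 19938 genes. NeuT codes for a constitutively active version of ERBB2, a cell-surface tyrosine kinase also known as HER2 or Neu. All cells came from the ventral prostate of FVB mice, and no label gives the animals' age, the vector or promoter that drove NeuT, or whether the lines of a group came from separate transductions or animals. Each oncogene was stated to have 3 lines, and Myc, Ras and Src lines (3 arrays each) made up the rest of the series. The lines were established cells grown in DMEM with 10% serum. The controls were kept in a medium for primary prostate epithelium and moved to the serum medium only the night before harvest, so the oncogene, establishment in culture and the medium cannot be told apart in the comparison with control. Both kinds of culture were harvested shortly before confluence with no other treatment. No label shows separate cultures behind the 3 controls. All p-values measure only the spread between arrays within groups, pooled over the 15 arrays, and that spread may be technical.

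ERBB2 has no ligand of its own. It pairs with EGFR, ERBB3 or ERBB4, and the active pair recruits adaptors such as GRB2 and SHC1 that feed the RAS, RAF, MEK and ERK cascade, while ERBB3 in particular recruits PI3 kinase and so AKT. ERK activity ends in transcription factors of the AP-1 and ETS families and in a set of feedback inhibitors that it induces itself. Normal prostate epithelium has a basal layer, marked by keratins 5 and 14 and by p63, and a luminal layer, marked by keratins 8 and 18.

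Levels are the deposited log2 values, so that a difference of 1 is a 2-fold change. Every group has n = 3 arrays, errors of levels are SD, and errors of differences are SE from a linear model (limma) fitted to all 15 arrays. A gene was called at an adjusted p under 0.05 (Benjamini-Hochberg over all 19938 genes) and a change of at least 2-fold. Members of gene lists are said to have risen or fallen at the adjusted p alone. Values in every array are given in the order of arrays 1 to 3, and a gene said to go from one trio of values to another goes from the controls to the NeuT lines. For every gene given by array except Krt8, Krt7 and Krt18, no NeuT array overlapped a control array. The median of all gene values was 6.47, background was not measured here, and for levels below that median the size of a fold change is unsure. Array medians ran from 6.19 to 6.32. The NeuT arrays correlated with each other at 0.9949 to 0.9962 across genes, with 6 to 26 genes 2-fold apart in a pair. Control arrays 1 and 2 correlated at 0.9974 with 3 such genes, whereas control array 3 correlated with them at 0.9551 and 0.9556 and differed 2-fold on 709 and 682 genes.

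Control array 3 carried kidney transcripts. Of 21 measured kidney tubule markers, 19 were at least 2-fold higher there than in the mean of controls 1 and 2. The androgen-regulated kidney gene Kap stood at 12.10 on control array 3 and at 4.78 and 4.83 on the others, and the mean over the list was 9.33 there against 5.38 and 5.43 in the other controls and 5.46 to 5.48 in the NeuT arrays. Across all genes, 685 were at least 2-fold higher on control array 3 and 2 were lower. The counts over all genes are therefore also given against controls 1 and 2 alone. For single genes and lists that comparison is given where it changed a call or moved a count by over 1.5 times. It is also given for some, not all, of the leading genes.

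**Figure D1:**
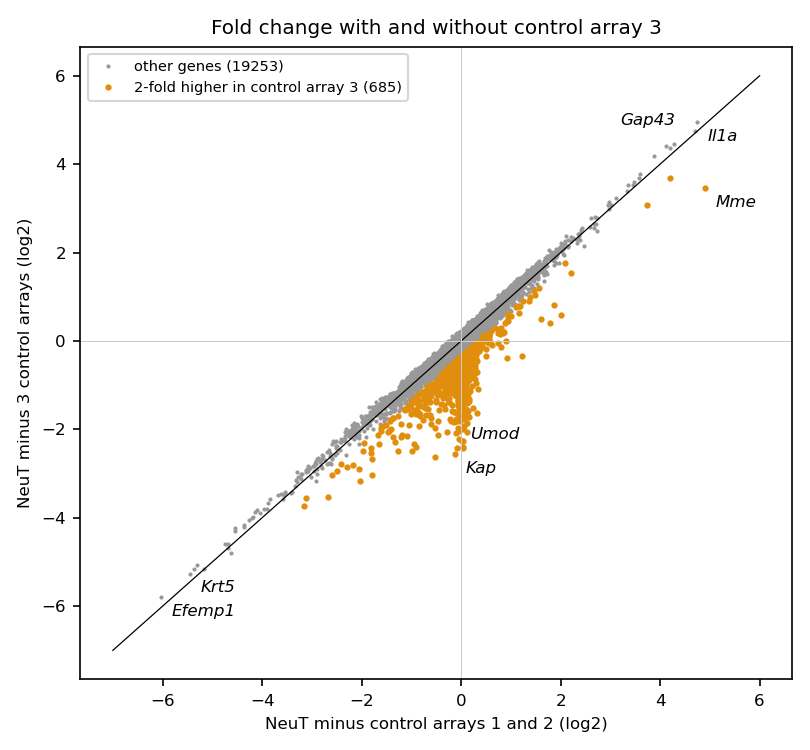
The fold change of NeuT over control of all 19938 genes (log2), against controls 1 and 2 on the horizontal axis and against all 3 controls on the vertical axis, with the line of equal values. The 685 genes at least 2-fold higher in control array 3 (orange) lie below the line, Kap and Umod (uromodulin, also a kidney gene) among them near 0 on the horizontal axis, while Il1a, Gap43, Krt5 and Efemp1 lie close to it.

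Against 3 controls, 558 genes were higher in the NeuT lines (2.8% of all genes) and 624 were lower (3.13%). Against controls 1 and 2, 493 were higher (2.47%) and 612 lower (3.07%). Both fits called 460 genes higher and 530 lower, and 452 and 484 of these were not among the genes raised in control array 3. Large falls outnumbered large rises: 155 genes fell at least 4-fold and 65 rose as much, and 15 fell and 6 rose at least 16-fold. Of the 685 genes raised in control array 3, 99 were called lower in NeuT with 3 controls and 46 with controls 1 and 2. At the adjusted p alone, 3022 genes rose (15.2%) and 2317 fell (11.6%), or 2683 (13.5%) and 2348 (11.8%) with controls 1 and 2, and these shares are the background for the counts of list members that follow. The arrays of the groups did not overlap on 4673 genes higher in NeuT (23.4%) and 3397 lower (17.0%). The median log2 fold change over all genes was 0.025.

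Erbb2 itself was examined first. It stood at 9.13, 9.88 and 9.50 with NeuT and at 7.79, 7.77 and 7.84 in control, a log2 difference of 1.70 ± 0.13 (adjusted p = 4.27e-07), or 3.25-fold. Every NeuT array lay above every control, and above every Myc, Ras and Src array, whose means were 7.99 ± 0.029, 7.39 ± 0.056 and 7.92 ± 0.035. Whether its probe set detects the transduced copy at all is not known from the sources used here, so the cell's own Erbb2 and a transduced copy cannot be told apart in this value. Among the receptors that pair with ERBB2, Egfr, the receptor for EGF and TGF-alpha, went the other way, with 8.01, 8.16 and 8.10 in the NeuT arrays against 9.72, 9.82 and 9.24 in the controls and a difference of -1.501 ± 0.16 (adjusted p = 6.52e-06). Egfr was lower in every NeuT array than in every control. Erbb3, the partner with little kinase activity of its own, rose by 0.51 ± 0.17 (adjusted p = 0.0429), a call lost with controls 1 and 2 (adjusted p = 0.0672) and when any other of the 6 arrays was left out. It was 1.49 ± 0.14 above the mean of the other lines (adjusted p = 5.1e-06). Erbb4 was low in NeuT (5.68 ± 0.10) and was raised in control array 3 alone.

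Of the ligands, 4 that bind EGFR changed, and no neuregulin passed the test. Hbegf, a membrane-tethered EGFR ligand released by proteases, stood at 10.54, 10.74 and 10.62 with NeuT and 9.94, 9.78 and 9.41 in control and rose by 0.92 ± 0.12 (adjusted p = 5.35e-05). Ereg (epiregulin) rose by 1.14 ± 0.26 (adjusted p = 0.00377) and Tgfa by 0.37 ± 0.10 (adjusted p = 0.014), the latter losing its call without control array 2 (adjusted p = 0.0594) or NeuT array 3 (0.0605). Epgn (epigen) fell by 0.92 ± 0.22 (adjusted p = 0.00583). The remaining ligands passed with neither control set. Btc was 7.43, 7.38 and 7.18 with NeuT and 6.75, 6.77 and 6.88 in control (adjusted p = 0.168), and Nrg1, Nrg2, Nrg3 and Nrg4, ligands of ERBB3 and ERBB4, differed by -0.14, 0.13, 0.14 and -0.049. Egf was at 5.91 ± 0.078 in NeuT and, like Erbb4, was higher in control array 3, at 9.05. In all, 5 of 14 receptors and ligands rose and 2 fell, and 3 rose without control array 2 or without NeuT array 3.

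**Figure D2:**
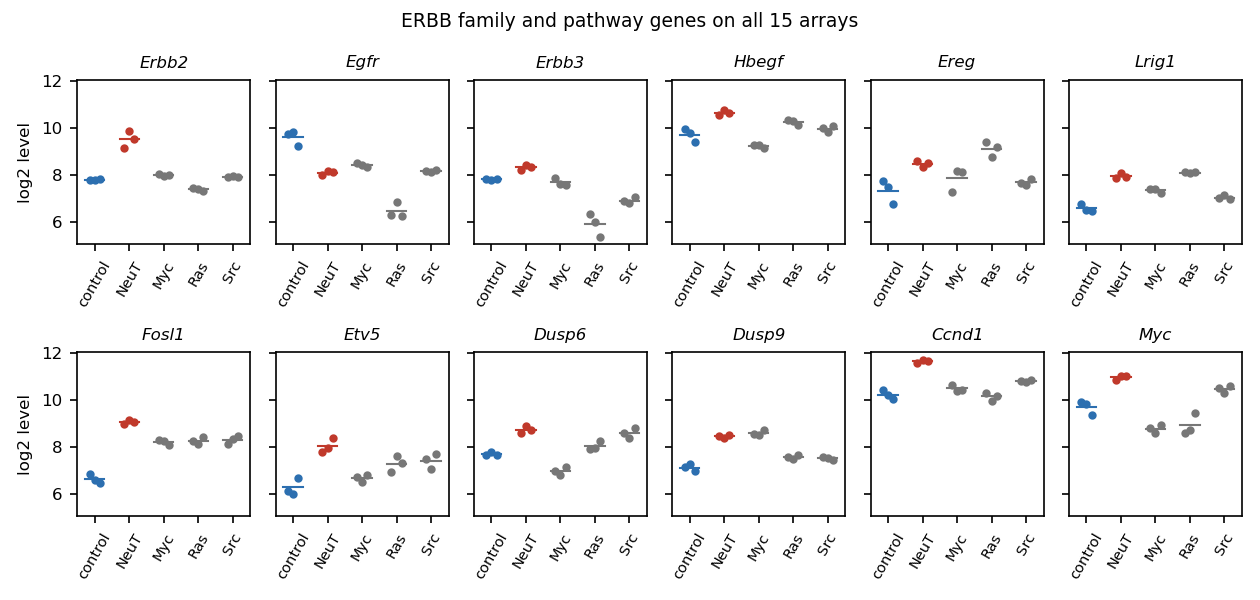
Levels (log2) of 12 ERBB family and pathway genes on each of the 15 arrays, by group, with group means as bars. Erbb2 lies higher on the NeuT arrays (red) than on all others, and Egfr is highest in the controls (blue).

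Among the adaptors and the kinase cascade, 6 of 23 members rose and 3 fell (median 0.010), and 3 rose without NeuT array 3. The largest rise was that of Lrig1, a membrane protein that promotes the degradation of ERBB receptors, at 7.86, 8.10 and 7.92 with NeuT and 6.75, 6.49 and 6.48 in control, a difference of 1.39 ± 0.093 (adjusted p = 1.04e-07). The docking proteins parted: Gab2 rose by 0.85 ± 0.14 and Gab1 fell by 1.47 ± 0.31 (adjusted p = 0.000359 and 0.00268). Map2k2 (MEK2) rose by 0.89 ± 0.093, and Plcg1, the phospholipase that binds active receptors, fell by 0.67 ± 0.11.

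The feedback inhibitors of ERK rose more often than they fell, 6 against 2 of 16 (median 0.17), with 1 fall without control array 1 or 2 or NeuT array 1 or 2. Dusp6 and Dusp9 code for cytoplasmic phosphatases of ERK. Dusp6 was at 8.59, 8.90 and 8.71 with NeuT and 7.65, 7.79 and 7.67 in control and rose by 1.03 ± 0.12 (adjusted p = 2.38e-05), and Dusp9 was at 8.49, 8.38 and 8.51 with NeuT and 7.14, 7.27 and 6.98 in control and rose by 1.33 ± 0.088 (adjusted p = 8.89e-08). The NeuT and control arrays did not overlap on either. Spred2 and Spry2, membrane-bound inhibitors of the RAS to RAF step, rose by 0.70 ± 0.10 and 0.62 ± 0.12. Dusp10, which acts mainly on JNK and p38, fell by 1.35 ± 0.12 (adjusted p = 2.31e-06).

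The transcription factors at the end of the cascade moved in part. Fosl1 (FRA-1), an AP-1 subunit that accumulates under sustained ERK activity, stood at 8.99, 9.14 and 9.08 with NeuT and at 6.85, 6.59 and 6.49 in control, a rise of 2.42 ± 0.12 (adjusted p = 4.14e-09), or 5.37-fold. Myc was at 10.85, 11.03 and 11.02 with NeuT and 9.92, 9.82 and 9.38 in control and rose by 1.26 ± 0.19 (adjusted p = 0.000189). It was 1.57 ± 0.16 above the mean of the Myc, Ras and Src lines. Whether its probe set detects the copy transduced into the Myc lines is not known from the sources used here. The value therefore does not compare total Myc RNA with those lines. Klf4 and Ier2 rose by 1.06 ± 0.14 and 1.03 ± 0.14, while Jun fell by 0.47 ± 0.11 (adjusted p = 0.00539). In all, 7 of 18 AP-1 and immediate early genes rose and 1 fell. Of 18 ETS factors, 4 rose and 4 fell. Those that rose included the PEA3 subfamily members Etv5, at 7.81, 7.95 and 8.37 with NeuT and 6.15, 6.01 and 6.70 in control (difference 1.75 ± 0.22, adjusted p = 3.49e-05), and Etv4 (0.88 ± 0.14), and the falls included the epithelial factor Ehf (-1.08 ± 0.14) and Elf1 (-1.10 ± 0.11).

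In the PI3 kinase pathway 8 of 26 genes rose (5 without NeuT array 3) and 6 fell. Inpp4b, a phosphatase that removes a product of PI3 kinase, had the largest rise, from 5.93, 5.995 and 6.31 in the controls to 8.60, 8.24 and 8.24 in the NeuT arrays (2.28 ± 0.14, adjusted p = 4.3e-08). The regulatory subunits Pik3r3 and Pik3r1 fell (-1.78 ± 0.13 and -0.72 ± 0.13), as did the catalytic subunit Pik3cb (-0.65 ± 0.11). Akt2 rose by 0.60 ± 0.12 and the mTORC1 subunit Rptor by 0.59 ± 0.11.

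The 15 highest and the 15 lowest genes were taken among those that passed with both control sets, were not raised in control array 3, reached the median level in the higher group and did not overlap between the NeuT and control arrays, with predicted genes and olfactory or vomeronasal receptor genes passed over. The higher ones were a mixed set of secreted, membrane and nuclear proteins, headed by Il1a, the cytokine interleukin 1 alpha, at 10.86, 10.86 and 10.80 with NeuT and 6.37, 5.82 and 5.46 in control, a difference of 4.96 ± 0.20 (adjusted p = 8.8e-10), or 31.1-fold. Gap43, a growth cone protein of neurons, followed at 11.04, 11.14 and 10.92 against 6.40, 6.24 and 6.21 (4.75 ± 0.18, adjusted p = 6.58e-10, 26.8-fold). Cpa4, a secreted carboxypeptidase, was at 10.94, 11.10 and 11.05 against 7.07, 6.45 and 6.19 (4.46 ± 0.27, adjusted p = 3.45e-08). Control array 3 was the lowest of the controls on Il1a, Gap43 and Cpa4, and without it the differences were 4.75, 4.71 and 4.27. Pate14, of a family of small secreted proteins known from the male reproductive tract, differed by 4.40 ± 0.25, and Prl2c5, a prolactin family gene related to proliferin, by 4.36 ± 0.31. Prl2c5 has near-identical copies in the genome, which its probe set may also measure.

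Below these came Lncenc1, a long noncoding RNA (4.18 ± 0.39), and the cytokine subunit Il23a, at 10.62, 10.21 and 10.12 in the NeuT arrays against 6.59, 6.83 and 6.22 in the controls (3.77 ± 0.17, adjusted p = 2.22e-09). Prkg2, a kinase activated by cyclic GMP, differed by 3.69 ± 0.15, the SH2 adaptor Sh2d1b1 by 3.59 ± 0.27 and Defb41, a beta-defensin, by 3.52 ± 0.32. Defb41 varied among the NeuT lines, at 8.18, 7.34 and 6.89, with the controls at 4.004, 4.04 and 3.81. The serine protease Tmprss11e, the proteoglycan Acan (aggrecan) and the receptor Tnfrsf26 differed by 3.52 ± 0.32, 3.38 ± 0.17 and 3.25 ± 0.28. The set closed with the cytokine Il24 (3.08 ± 0.40) and Hmga2, a chromatin protein of embryonic tissue, which was tight in both groups at 10.53, 10.65 and 10.59 against 7.65, 7.49 and 7.40 (3.08 ± 0.10, adjusted p = 2.18e-10).

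The 15 lowest held genes of the basal layer and of adhesion. Efemp1 (fibulin 3), an extracellular matrix protein, headed them and fell from 11.03, 10.84 and 10.25 in the controls to 4.93, 4.88 and 4.91 in the NeuT arrays (-5.80 ± 0.28, adjusted p = 4.21e-09), 55.6-fold lower. Krt5, the defining basal keratin, stood at 11.09, 11.21 and 10.58 in the controls and 5.67, 5.65 and 5.78 in the NeuT arrays (-5.26 ± 0.14, adjusted p = 6.84e-11), 38.4-fold lower and below the median of all gene values. The Y-linked translation factor Eif2s3y differed by -5.16 ± 0.23, the adhesion molecule Ceacam1 by -5.15 ± 0.15 and the desmosomal cadherin Dsg3 by -5.07 ± 0.18. Timp3, an inhibitor of metalloproteinases, was at 10.26, 10.32 and 10.83 in the controls and 5.71, 5.70 and 5.58 in NeuT (-4.80 ± 0.31, adjusted p = 6.46e-08). Control array 3 was the highest control on Timp3 and the lowest on Efemp1 and Krt5, and without it the differences were -4.63, -6.02 and -5.45.

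Arhgdib fell by 4.68 ± 0.17, as did the GABA receptor subunit Gabrp (-4.60 ± 0.28). The keratins Krt6a, Krt15 and Krt17 fell (-4.31 ± 0.21, -4.20 ± 0.24 and -4.16 ± 0.17). Rassf9 (-4.24 ± 0.21), the urothelial tetraspanin Upk1b (-4.04 ± 0.21), the copper-binding plasma protein Cp (ceruloplasmin, -4.01 ± 0.44) and the ubiquitin-like Ubd (-3.98 ± 0.17) completed the 15. On some of the 30 genes the other lines took varied levels, and on others they lay near NeuT. Krt5 was 9.23 ± 0.21 in Myc, 5.59 ± 0.11 in Ras and 12.19 ± 0.064 in Src, so that it was low in NeuT and Ras and high in Src. Il1a was 11.21 ± 0.21 in Myc and 11.37 ± 0.057 in Src, and NeuT did not pass the test against either (differences of -0.37, adjusted p = 0.292, and -0.53, adjusted p = 0.0773). In Ras it was 4.69 ± 0.33, a difference of 6.15 (adjusted p = 3.46e-11). Efemp1, Timp3, Ceacam1 and Ubd were low in every oncogene group, with Efemp1 at 5.03 ± 0.11, 5.30 ± 0.76 and 5.13 ± 0.027 in Myc, Ras and Src. Prl2c5 and Prkg2 were high in every oncogene group. In Myc, Ras and Src, Prl2c5 was at 10.3 ± 0.35, 10.6 ± 0.61 and 10.9 ± 0.24, and Prkg2 at 10.2 ± 0.18, 10.6 ± 0.10 and 10.4 ± 0.060. Prkg2 was lower in NeuT than in Ras and Src (adjusted p = 0.00197 and 0.02). Such genes set all the lines apart from the controls, and not NeuT alone. In all 30 genes the NeuT arrays and the 3 controls did not overlap, which was a condition of their choice.

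**Figure D3:**
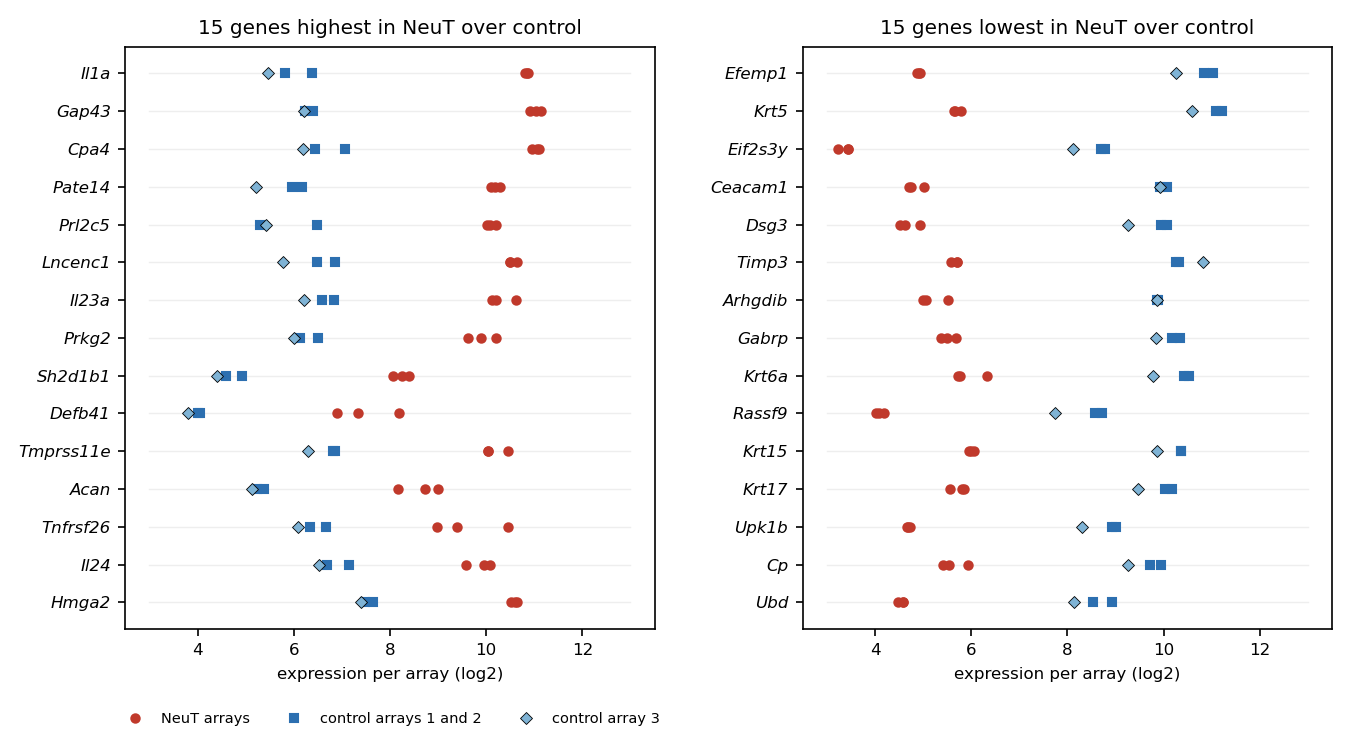
Levels (log2) on each NeuT array (red circles), on control arrays 1 and 2 (blue squares) and on control array 3 (light diamonds) of the 15 genes with the highest and the 15 with the lowest fold change over control. Defb41 and Tnfrsf26 spread most among the NeuT arrays, and control array 3 lies within 0.90 of the mean of the other controls on each gene.

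The AP-1 subunit Fosl1 and Myc were both higher in NeuT, and the stretches before the start sites of these 30 genes were searched for the AP-1 motif TGANTCA, the E-box CACGTG bound by MYC, and the TATA box TATAAA, on both strands. RefSeq sequences (GRCm38.p6, 250 bases before the start) were matched for 18 of the 30 genes, 9 of the highest and 9 of the lowest. TGANTCA stood before 4 of the 9 highest genes and 2 of the 9 lowest, against 6.75% of 32851 promoter entries in the same table. CACGTG stood before 0 and 1 of them (6.02% of entries) and TATAAA before 2 and 3 (12.4% of entries). A gene counted if any of its entries matched, and the 9 lowest genes had 12 entries, whereas the shares are of single entries. The genes with an AP-1 match on the higher side are shown, with AP-1 and TATA letters in capitals, and Krt5 is added as a strongly lowered gene without a match. The lowered genes with a match, not shown, were Efemp1 (TGAATCA, -154 to -148) and Cp (TGATTCA, -177 to -171). All matches on the higher side read TGACTCA or TGAGTCA, and the share of all entries with those forms alone was not counted. A match is a description of the letters and not of a bound site. The matches of TGANTCA lay at positions -12 to -6 from the start in Il1a and -10 to -4 in Cpa4, in each just after a TATA box, and farther up in Pate14 (-190 to -184) and Sh2d1b1 (-207 to -201 and -173 to -167). Il1a lies at chr2:129309973-129310222 (minus strand), Cpa4 at chr6:30568119-30568368 (plus strand), Pate14 at chr9:36638603-36638852 (minus strand), Sh2d1b1 at chr1:170277068-170277317 (plus strand) and Krt5 at chr15:101712906-101713155 (minus strand).
Il1a: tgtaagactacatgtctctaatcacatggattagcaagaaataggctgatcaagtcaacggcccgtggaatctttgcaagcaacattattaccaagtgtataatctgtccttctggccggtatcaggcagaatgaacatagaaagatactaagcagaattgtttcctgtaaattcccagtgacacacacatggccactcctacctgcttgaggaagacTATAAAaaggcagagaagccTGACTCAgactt
Cpa4: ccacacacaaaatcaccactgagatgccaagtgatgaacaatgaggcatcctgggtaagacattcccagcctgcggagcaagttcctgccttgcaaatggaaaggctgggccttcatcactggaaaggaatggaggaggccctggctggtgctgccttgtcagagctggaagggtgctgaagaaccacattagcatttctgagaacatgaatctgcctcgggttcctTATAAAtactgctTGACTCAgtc
Pate14: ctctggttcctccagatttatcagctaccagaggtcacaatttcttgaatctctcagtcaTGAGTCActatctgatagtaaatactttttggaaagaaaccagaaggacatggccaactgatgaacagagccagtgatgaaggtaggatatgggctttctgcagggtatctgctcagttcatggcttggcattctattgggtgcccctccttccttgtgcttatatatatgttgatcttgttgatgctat
Sh2d1b1: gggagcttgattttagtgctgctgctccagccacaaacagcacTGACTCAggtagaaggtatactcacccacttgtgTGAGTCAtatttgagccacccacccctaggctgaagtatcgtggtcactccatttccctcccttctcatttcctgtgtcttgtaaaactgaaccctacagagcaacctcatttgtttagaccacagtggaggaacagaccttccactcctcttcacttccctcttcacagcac
Krt5: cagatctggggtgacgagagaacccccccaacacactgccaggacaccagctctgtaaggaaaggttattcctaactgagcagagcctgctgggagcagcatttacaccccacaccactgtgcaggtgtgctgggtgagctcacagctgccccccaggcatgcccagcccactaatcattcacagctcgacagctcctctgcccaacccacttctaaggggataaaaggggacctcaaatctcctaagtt

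Basal markers fell more often than they rose. Of 17 basal markers, 9 fell and 3 rose (median -0.35), and 10 fell with controls 1 and 2. Krt14 fell from 11.85, 11.84 and 11.50 to 8.19, 8.29 and 8.46 (-3.42 ± 0.15, adjusted p = 2.27e-09), and so stayed above the median level where Krt5 did not. Trp63, the gene of the basal master regulator p63, was at 6.16, 6.25 and 6.16 with NeuT and 7.95, 8.05 and 7.55 in control (-1.66 ± 0.12, adjusted p = 3.06e-07). On the other side, Tns4, a tensin of focal adhesions, rose by 1.40 ± 0.17 (adjusted p = 2.93e-05), and the NOTCH ligand Jag2 by 0.69 ± 0.11. Of 5 keratins of stressed and hyperproliferating epithelium 3 fell and 0 rose, and Krt16 fell by 2.60 ± 0.36 beside Krt6a.

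The simple-epithelial keratins Krt8, Krt7 and Krt18 were high in both groups, and their arrays overlapped. Krt8 was at 12.81, 12.87 and 12.88 with NeuT and 12.92, 12.95 and 12.78 in control (-0.029 ± 0.10, adjusted p = 0.887), and Krt7 at 12.01, 12.24 and 12.16 and 12.20, 12.13 and 11.91 (0.060 ± 0.084, adjusted p = 0.692). Krt18 was at 12.16, 12.34 and 12.27 and 12.48, 12.37 and 11.90, with an SE of 0.68 for the difference in the shared fit and the widest spread in the Ras arrays (7.41 ± 2.14). The list of 8 also held Krt4 and Krt13, which are keratins of stratified rather than simple epithelium. Of the 8, Krt4 (-2.82 ± 0.13) and Krt23 (-1.68 ± 0.20) fell, and 4 members fell without control array 3.

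Markers of luminal and secretory prostate mostly did not pass, with 5 of 21 falling and 1 rising (2 without control array 2 or NeuT array 1). Secretory products of the differentiated gland were near the bottom of the scale in both groups. Probasin (Pbsn) was at 3.10 ± 0.045 in NeuT and 3.07 ± 0.069 in control. Of the genes that did pass, Tmprss2, an androgen-regulated membrane protease, fell from 8.51, 8.47 and 8.86 to 5.56, 5.69 and 5.54 (-3.02 ± 0.12, adjusted p = 8.8e-10), and Psca (prostate stem cell antigen) fell by 3.07 ± 0.17. The lineage factors Foxa1 and Gata3 fell (-0.54 ± 0.076 and -0.77 ± 0.18). The member that rose with all arrays was Mme (neprilysin, CD10), a cell-surface peptidase of prostate epithelium that kidney tubules also carry. It stood at 10.95, 10.90 and 10.65 in the NeuT arrays, at 5.93 on both control arrays 1 and 2 and at 10.26 on control array 3. The difference was 4.90 ± 0.13 with controls 1 and 2 (adjusted p = 5.1e-12) and 3.46 ± 0.79 with all 3 (adjusted p = 0.00413, and 0.0758 in a fit of the 6 arrays alone). Mme was 5.60 ± 0.64 above the mean of the other lines (adjusted p = 2.53e-05).

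Among the junctions between cells, desmosomes had the larger share of falls. Of 16 desmosome genes 8 fell and 1 rose (0 without control array 2 or any 1 NeuT array) (median -0.49). The falls included the desmosomal cadherins. Besides Dsg3, Dsc2 went from 9.62, 9.73 and 8.99 to 6.98, 6.58 and 6.81 (-2.66 ± 0.28, adjusted p = 6.02e-06), and Dsc3 (-2.28 ± 0.19) and Dsg2 (-2.03 ± 0.16) fell. Among 19 tight junction genes 7 fell (4 when any 1 NeuT array was left out), led by Cldn1 (-2.02 ± 0.21) and Ocln (-1.11 ± 0.12), and 3 rose, Cldn12 by 1.72 ± 0.15, Cldn6 by 1.36 ± 0.17 and Pard6b by 0.49 ± 0.13. Hemidesmosome genes, which fix basal cells to the basement membrane, gave 2 rises (1 when any array but control array 1 was left out) and 1 fall (Col17a1, -0.68 ± 0.11) among 8.

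Mesenchymal cadherins and vimentin were higher in NeuT, and E-cadherin was lower but still well above the median level. Vim (vimentin) rose from 9.20, 9.16 and 8.99 to 10.72, 10.91 and 10.74 (1.67 ± 0.094, adjusted p = 1.92e-08), and Cdh2 (N-cadherin) from 6.14, 6.22 and 6.03 to 8.13, 8.05 and 7.95 (1.91 ± 0.10, adjusted p = 1.26e-08). The transcription factor Twist1 rose by 1.84 ± 0.13, and the cadherins Cdh13 and Cdh6 by 1.90 ± 0.10 and 1.77 ± 0.17. Cdh1 (E-cadherin) fell by 0.71 ± 0.13 (adjusted p = 0.000866) but stood at 10.34, 10.51 and 10.50 in the NeuT arrays, and Epcam, an adhesion molecule of simple epithelia, fell by 0.29 ± 0.078 to 9.38 ± 0.043 (adjusted p = 0.0119, and 0.0623 without control array 2). Snai2, a repressor of E-cadherin that basal cells also express, fell by 1.40 ± 0.14 (adjusted p = 3.07e-06). In all, 6 of 18 rose and 4 fell. Among regulators of the epithelial state 6 of 15 fell and 2 rose (1 without control array 2, control array 3 or NeuT array 2, and 0 without NeuT array 3), with falls of Mal2 (-1.55 ± 0.18), Grhl3 (-1.20 ± 0.13) and Spint2 (-0.88 ± 0.10). Esrp1, which drives epithelial splicing, rose by 0.53 ± 0.15 (adjusted p = 0.0176), a call lost with controls 1 and 2 (adjusted p = 0.0617) and without NeuT array 3 (0.073).

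Several cytokines besides Il1a, Il23a and Il24 rose. Lif, of the interleukin 6 family, was at 10.26, 10.22 and 10.11 with NeuT and 8.81, 8.65 and 8.08 in control (1.68 ± 0.18, adjusted p = 9.68e-06). The neutrophil chemokines Cxcl2 and Cxcl1 rose by 2.79 ± 0.28 and 1.30 ± 0.16 (adjusted p = 4.29e-06 and 2.65e-05), and the colony stimulating factors Csf2 and Csf3 by 1.48 ± 0.17 and 1.04 ± 0.16. The interleukin 1 family split around Il1a: 6 of 16 members fell and 2 rose. Il18r1, the receptor of interleukin 18, fell from 10.83, 10.88 and 10.37 to 7.58, 6.41 and 6.71 (-3.79 ± 0.23, adjusted p = 3.96e-08), and the alarmins Il33 and Il18 fell (-2.82 ± 0.22 and -2.14 ± 0.24). Of 24 chemokines and colony stimulating factors, 5 rose and 5 fell, the latter with Ccl5 (-1.76 ± 0.10), Tnf (-1.03 ± 0.17) and Cxcl15 (-1.99 ± 0.21). Osmr, the receptor of oncostatin M, fell by 1.55 ± 0.21.

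No measured gene of the interferon or MHC class I lists rose. Of 23 interferon response genes 4 fell (2 without control array 1) and 0 rose, and of 13 genes of MHC class I processing 6 fell and 0 rose (medians -0.33 and -0.41). Ifitm3, which blocks entry of enveloped viruses, went from 11.90, 11.99 and 11.95 to 8.83, 9.06 and 9.24 (-2.90 ± 0.15, adjusted p = 8.3e-09). Besides Ubd, the proteasome activator Psme2 fell by 1.05 ± 0.18, as did the peptide trimmer Erap1 (-1.54 ± 0.22). Among complement and acute phase genes 6 of 15 fell and 0 rose (1 without control array 3). Those that fell included Lcn2 (-3.07 ± 0.17, adjusted p = 1.92e-08) and Clu (-2.38 ± 0.26, adjusted p = 1.11e-05).

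The retinoid pathway held 8 falls and 4 rises among 19 genes (median -0.26). Retinoic acid is made from retinal by aldehyde dehydrogenases and acts through RAR receptors. Dhrs3, which turns retinal back to retinol, fell from 9.87, 9.95 and 9.99 to 6.38, 6.57 and 6.52 (-3.44 ± 0.14, adjusted p = 1.18e-09). The retinal dehydrogenases Aldh1a1 and Aldh1a3 fell (-2.96 ± 0.21 and -2.88 ± 0.16), as did the carrier Crabp2 (-2.82 ± 0.093) and the receptor Rarb (-2.29 ± 0.12). All of these also fell with controls 1 and 2. Dhrs9 rose by 2.05 ± 0.19, and the receptors Rara and Rxra by 0.44 ± 0.10 and 0.37 ± 0.093.

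In the other signalling families falls outnumbered rises in the TGF-beta and Wnt lists. The TGF-beta and BMP list had 12 falls among 28 genes and 3 rises (median -0.33), with 7 falls without NeuT array 2. Tgfb2 fell from 8.90, 9.08 and 8.50 to 5.95, 5.93 and 5.95 (-2.88 ± 0.15, adjusted p = 1.24e-08), and the TGF-beta response genes Thbs1 and Ccn2 fell (-1.67 ± 0.20 and -1.41 ± 0.17). Receptor Tgfbr2 rose by 0.65 ± 0.10. In the Wnt pathway 12 of 38 genes fell (7 without NeuT array 2) and 4 rose. The median of the Wnt list was near 0, at -0.011 with 3 controls and 0.010 with controls 1 and 2. The receptors Fzd3, Lgr4 and Fzd7 fell (-2.19 ± 0.13, -2.23 ± 0.15 and -1.79 ± 0.13), and the ligand Wnt7a rose by 1.12 ± 0.18. Fgfr2, the FGF receptor of epithelia, fell by 2.07 ± 0.10 and Fgf5 rose by 1.41 ± 0.14. The neuropilins, co-receptors of semaphorins and VEGF, went opposite ways: Nrp1 went from 9.36, 9.50 and 9.10 to 6.996, 6.44 and 6.92 (-2.53 ± 0.15) and Nrp2 from 7.30, 7.16 and 7.22 to 9.52, 9.75 and 9.56 (2.38 ± 0.14), with an adjusted p = 4.32e-08 for both. The list of ephrins, semaphorins and receptors gave 5 rises and 5 falls among 37 (3 rises without NeuT array 1 or 3), the FGF list 1 (2 without control array 1 or NeuT array 2) and 3 among 17, and the interleukin 6 family 2 and 2 among 13. The Notch list gave 2 rises and 2 falls among 20, with no falls when any array but control array 3 was left out.

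Among kinases and phosphodiesterases of the cyclic nucleotides 3 of 17 rose and 4 fell (7 without control array 1), and beside Prkg2 the protein kinase A subunit Prkar2b rose by 1.18 ± 0.22. Pde3b, which breaks down cyclic AMP, fell by 2.61 ± 0.16 (adjusted p = 5.23e-08).

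**Figure D4:**
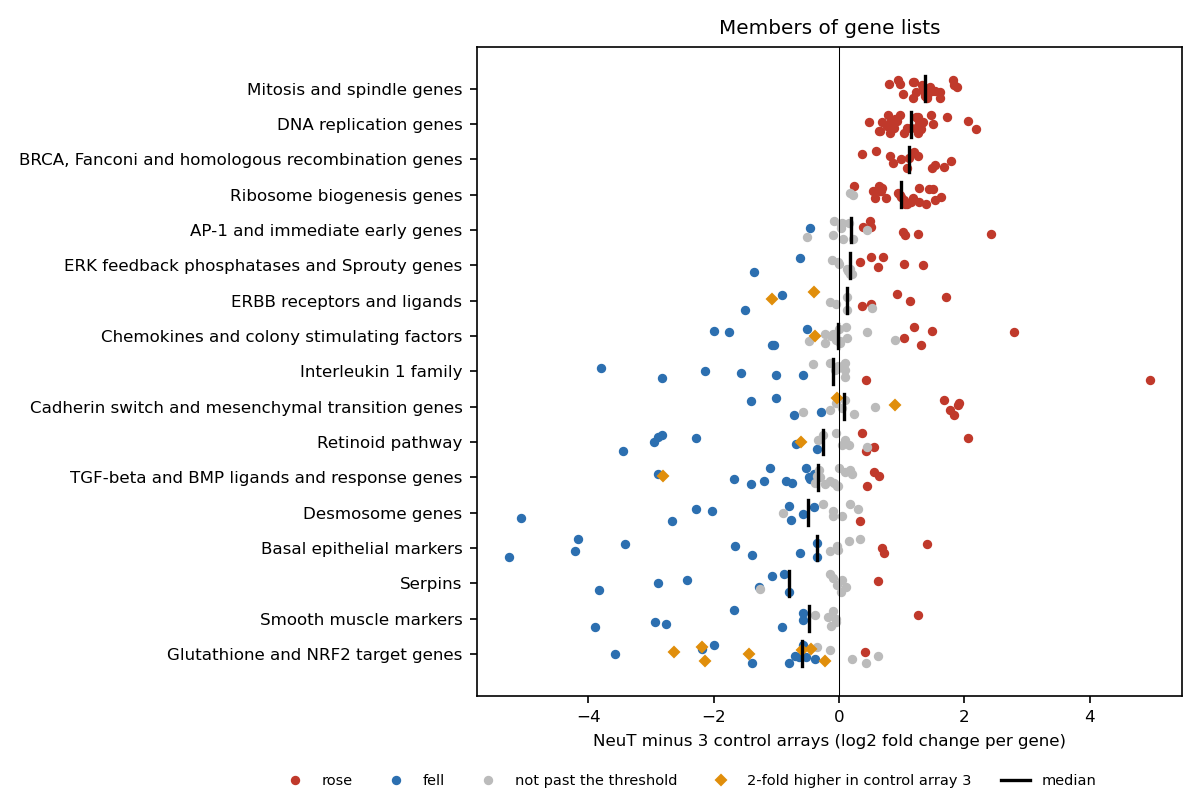
Log2 fold change of NeuT over 3 controls for each measured member of 17 gene lists, coloured by whether it rose, fell or did not pass an adjusted p under 0.05, with list medians as bars and genes at least 2-fold higher in control array 3 as orange diamonds. The mitosis, replication and homologous recombination lists lie wholly to the right of 0, and the basal and desmosome lists reach below -5.

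Cell cycle genes rose together. All 23 measured mitosis and spindle genes rose, as did all 29 replication genes and all 13 genes of the BRCA and Fanconi pathways, with median differences of 1.37, 1.15 and 1.11. The same genes rose with controls 1 and 2, with medians of 1.17, 1.01 and 0.98. The mean over the mitosis list was 9.88 to 10.01 in the NeuT arrays, 8.79 and 8.78 in controls 1 and 2 and 8.22 in control array 3. Prim1, a subunit of the primase that starts DNA strands, was at 10.72, 10.48 and 10.57 with NeuT and 8.52, 8.61 and 8.10 in control (2.18 ± 0.11, adjusted p = 6.93e-09). The mitotic kinases Plk1 and Aurkb rose by 1.88 ± 0.13 and 1.83 ± 0.14, the survivin gene Birc5 by 1.40 ± 0.082 and Brca1 by 1.49 ± 0.12. Against the other lines, 2, 1 and 1 of the members were higher in NeuT than in control and in each of the Myc, Ras and Src groups (2.49% of all genes were).

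Ribosome biogenesis genes followed the same direction, 23 of 25 rising and 0 falling (median 0.99), led by Mybbp1a (1.62 ± 0.14), Nop2 (1.53 ± 0.16) and Polr1a (1.27 ± 0.14), a subunit of RNA polymerase I. With controls 1 and 2, 21 rose. Ccnd1, the cyclin that growth factor signalling induces in G1, went from 10.42, 10.22 and 10.04 to 11.59, 11.71 and 11.65 (1.42 ± 0.11, adjusted p = 3.1e-07) and was 1.16 ± 0.087 above the mean of the other lines (adjusted p = 5.51e-07). Of the cyclins, CDKs, inhibitors and E2F genes 11 of 20 rose and 3 fell (1 without control array 3, NeuT array 1 or NeuT array 2), and the inhibitors Cdkn2d and Cdkn2c were among those that rose (0.60 ± 0.080 and 1.19 ± 0.18). The p53 list gave 4 rises (2 without NeuT array 3) and 3 falls among 19, the largest being the fall of Gadd45a (-1.67 ± 0.14).

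Biosynthetic genes rose in part. In the list of serine synthesis, amino acid transport and ATF4 targets 10 of 24 rose and 3 fell (5 without control array 3). Shmt2, the mitochondrial enzyme that draws single-carbon units from serine, went from 7.99, 8.13 and 8.03 to 10.20, 10.22 and 10.19 (2.15 ± 0.13, adjusted p = 4.32e-08). Psat1, of the serine pathway, rose by 1.47 ± 0.14 and the amino acid transporter Slc7a5 by 1.29 ± 0.15. Fatty acid genes gave 10 rises and 3 falls among 21, with Fabp5 at 1.18 ± 0.15 and Elovl7 at -1.63 ± 0.16. Glycolysis genes gave 9 rises and 2 falls among 19, with the lactate transporter Slc16a1 at 1.44 ± 0.19. Cholesterol synthesis genes gave 7 rises (4 without NeuT array 3) and 1 fall (0 without control array 1 or 2 or NeuT array 2 or 3) among 18. Of 24 oxidative phosphorylation genes 0 rose and 1 fell, and 3 rose and 0 fell with controls 1 and 2. The falls were 2 without control array 1, 3 without control array 2 and 0 without any 1 NeuT array.

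Glutathione and NRF2 target genes went down, 13 of 23 falling and 1 rising, or 0 without NeuT array 1 (median -0.59, -0.43 with controls 1 and 2). Against controls 1 and 2 alone 12 fell, or 8 with the genes raised in control array 3 dropped. In this list 7 members were raised in control array 3. Gsta4, a glutathione transferase of lipid peroxidation products, was not one of them and went from 12.09, 12.00 and 12.00 to 7.88, 9.15 and 8.35 (-3.57 ± 0.24, adjusted p = 1.13e-07). Gpx2, an epithelial glutathione peroxidase, fell by 1.99 ± 0.18. Of the hypoxia targets 5 of 16 fell and 1 rose (2 without control array 3), with 2 falls without NeuT array 2 and 3 without control array 1, control array 2, NeuT array 1 or NeuT array 3. The prolyl hydroxylase Egln3 fell by 1.03 ± 0.18 and differed more from the other lines, -3.41 ± 0.15 from their mean (adjusted p = 2.55e-09).

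Matrix genes changed in both directions. Of 31 matrix proteins and crosslinking enzymes 11 fell and 6 rose, and without dim genes 4 fell and 6 rose. Of 23 collagens 2 fell, a share below that over all genes, and 1 fell when any 1 array was left out. 0 collagens rose, or 1 without NeuT array 1 or 2. Besides Efemp1, Sparc fell from 11.46, 11.52 and 11.21 to 9.68, 9.94 and 9.62 (-1.65 ± 0.13, adjusted p = 4.41e-07), as did Postn (-1.22 ± 0.085) and the basement membrane linker Nid1 (-1.33 ± 0.15). Fbln2 (fibulin 2) rose from 6.93, 6.85 and 6.50 to 9.41, 9.33 and 9.23 (2.56 ± 0.11, adjusted p = 2.26e-09), and the laminin chain Lamb1 rose by 0.97 ± 0.087. Pcolce2, an enhancer of procollagen processing, was at 10.23, 10.12 and 10.00 with NeuT and 6.10, 5.75 and 7.44 in control, with control array 3 the highest (3.68 ± 0.31 with 3 controls, 4.19 ± 0.16 with controls 1 and 2).

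Protease inhibitors and adhesion molecules fell beside Timp3 and Ceacam1. Of 15 serpins 7 fell and 1 rose (median -0.80), with Serpinb9b at -3.82 ± 0.28 and Serpinb9, an inhibitor of granzyme B, at -2.89 ± 0.29. Serpinb9b has close copies that its probe set may share. Of 30 metalloproteinases, TIMPs and plasminogen activators 7 fell (11 without control array 3) and 1 rose, the riser being Adam12 (1.20 ± 0.16). Of 20 immunoglobulin-type adhesion molecules 10 fell and 3 rose, Vcam1 at -1.07 ± 0.14 and Cadm1 at 1.20 ± 0.086. Integrins gave 3 falls (5 without control array 3) and 1 rise (0 without control array 3, NeuT array 2 or NeuT array 3) among 20, with Itgb8 at -2.66 ± 0.48 and Itgb6 at -1.32 ± 0.11. Cathepsins and cystatins gave 7 falls among 17, 2 members being raised in control array 3. The caveolae list gave 3 rises and 2 falls (1 when any array but control array 3 was left out) among 8, and the S100 list 0 rises (1 without control array 2) and 2 falls (1 without control array 3 or any 1 NeuT array) among 13.

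Some genes of embryonic tissue rose with Hmga2. Igf2bp1, an RNA-binding protein of fetal tissue, went from 5.88, 5.76 and 5.48 to 8.39, 8.45 and 8.66 (2.80 ± 0.12, adjusted p = 1.17e-09), and Lin28b rose by 1.40 ± 0.14. In all 5 of 13 oncofetal and imprinted genes rose and 3 fell. Of 20 neuronal genes 2 rose, Gap43 among them, and 2 fell, Stmn2 among the latter (-1.08 ± 0.17). Neither count was above the share over all genes (15.2% rose and 11.6% fell). Of the neuronal genes, 1 fell when any array but control array 3 was left out. The prolactin list had 1 riser, Prl2c5, among 5, and the LY6 and PATE list 2 rises and 4 falls among 14. Armcx4 and Bex2, X-linked genes of different families, rose by 1.496 ± 0.29 and 0.96 ± 0.18. Of 16 members of the list of BEX, ARMCX and TCEAL genes 2 rose and 2 fell, and 0 rose without dim genes. HOX genes, which record position along the body, gave 4 falls and 2 rises (1 without NeuT array 2) among 31, and the posterior Hoxd10 and Hoxd13 fell (-2.17 ± 0.17 and -1.21 ± 0.13).

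Of 7 measured Y-linked genes 3 fell in the NeuT lines and 0 rose. Eif2s3y was at 3.44, 3.23 and 3.44 with NeuT and 8.70, 8.77 and 8.12 in control, Uty at 4.16, 4.22 and 4.41 and 7.96, 7.91 and 7.36, and Kdm5d at 4.64, 4.53 and 4.77 and 7.61, 7.49 and 6.85. The differences were -5.16, -3.48 and -2.67, with no overlap between groups. Eif2s3y was also low in the Ras and Src lines, at 3.47 ± 0.12 and 3.62 ± 0.080, and higher in the Myc lines, at 6.96 ± 0.58.

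Smooth muscle markers, most of them contractile genes, fell more often than they rose in NeuT. Of 14 markers 7 fell and 1 rose (median -0.48), and the mean over the list was 7.13 to 7.20 with NeuT and 7.96 to 8.20 in control. Acta2 (smooth muscle actin) went from 10.12, 10.54 and 9.88 to 6.27, 6.13 and 6.47 (-3.89 ± 0.26, adjusted p = 1.07e-07), and Tagln (transgelin) fell by 2.94 ± 0.19. Fibroblast markers gave 2 falls among 15, Dcn (-1.62 ± 0.27) and Mfap5 (-0.91 ± 0.18), and a list mean of 5.75 to 5.86 in NeuT and 5.91 to 6.10 in control. Of the leukocyte markers 1 of 16, Aif1, fell (-1.498 ± 0.13), and 4 fell without control array 2. None of 14 endothelial, 8 seminal vesicle or 21 kidney markers was called with 3 controls. Without control array 2, 1 endothelial and 2 kidney markers fell, without control array 1, 1 kidney marker fell, and without control array 3, 1 rose. Fewer cells of a type and less RNA per cell cannot be told apart in such bulk samples. The part of stromal cells, smooth muscle included, in the matrix and basal genes above was not tested.

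The other lines shared the serum medium and the established state, and the comparison with them does not use the controls. Against the mean of the Myc, Ras and Src groups 302 genes were higher in NeuT (1.51%) and 186 lower (0.933%). Higher than in each of the 3 groups at the adjusted p alone were 659 genes (3.31%) and lower 230 (1.15%). Of these, 496 (2.49%) were also higher than control and 157 (0.787%) also lower, while 23 (0.115%) lay above each other line but below control and 8 (0.0401%) below each other line but above control.

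The 10 genes furthest above and below the other lines were taken among those that differed from each line group and from control in the same direction. The filters of the 15 highest and 15 lowest genes applied as well, and the highest line group had to reach the median level. Mme, raised in control array 3, was thereby left out. Gap43 headed the first 10. It was 3.93 ± 0.15 above the mean of the other lines (adjusted p = 5.67e-10), with Myc, Ras and Src at 6.23 ± 0.10, 6.39 ± 0.52 and 8.69 ± 0.12. Tnc (tenascin C), a matrix glycoprotein of remodelling tissue, was at 11.22, 11.07 and 11.30 with NeuT and 9.77, 10.17 and 9.47 in control, and at 5.45 ± 0.17, 6.82 ± 0.32 and 10.06 ± 0.10 in the Myc, Ras and Src lines (3.75 ± 0.14, adjusted p = 5.67e-10). Cpa4, Defb41 and Il23a followed with 3.38 ± 0.22, 3.21 ± 0.26 and 3.16 ± 0.14. Wfdc2 (HE4), a secreted protein of genital tract epithelium, was highest in NeuT by a small margin over control (0.62 ± 0.089) and Myc (11.32 ± 0.12), and by a wide one over Ras (5.98 ± 0.14). The membrane protein Itm2a, Acan, the semaphorin Sema6a and the leptin receptor Lepr were 2.75 ± 0.21, 2.48 ± 0.14, 2.45 ± 0.12 and 2.43 ± 0.25 above the other lines. Lepr was uneven among the NeuT lines, at 7.68, 6.07 and 7.47, though above all controls (4.38, 4.44 and 4.76).

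Arhgdib headed the 10 genes below the other lines, -4.17 ± 0.14 from their mean (adjusted p = 2.9e-10), at 6.18 ± 0.23 in Myc, 11.50 ± 0.36 in Ras and 10.40 ± 0.040 in Src. The proteoglycan Vcan (versican) was at 4.70, 5.16 and 4.86 with NeuT, 7.03, 7.07 and 6.34 in control and 7.63 ± 0.21, 9.24 ± 0.34 and 7.81 ± 0.12 in the other lines (-3.32 ± 0.17, adjusted p = 1.13e-08). The monocyte chemokine Ccl2 was at 6.85, 6.34 and 6.72 in NeuT, 7.84, 7.76 and 7.51 in control and 7.50 ± 0.13, 11.96 ± 0.21 and 10.31 ± 0.18 in Myc, Ras and Src (-3.29 ± 0.12). Ifitm3 set NeuT apart from all 4 other groups, which lay within 11.92 and 12.53 as means while NeuT lay at 9.05 ± 0.20 (-3.15 ± 0.12). Tnip3, an inhibitor of NF-kappaB signalling, the protease inhibitor Slpi, Gsta4 and the epidermal protein Sbsn were -2.83 ± 0.18, -2.79 ± 0.16, -2.73 ± 0.20 and -2.54 ± 0.19 from the mean of the other lines. Cp and Samd9l closed the set with -2.38 ± 0.36 and -2.29 ± 0.50, both with wide spread in the Ras group (7.46 ± 1.27 and 8.49 ± 1.77).

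**Figure D5:**
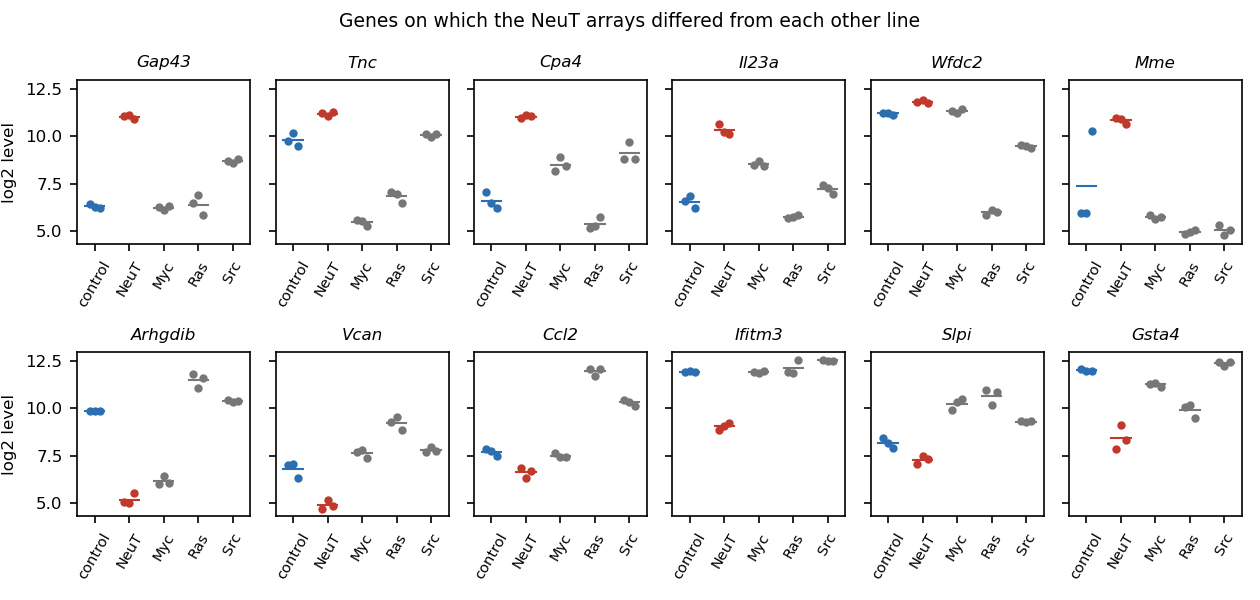
Levels (log2) of 12 genes on each of the 15 arrays, by group, with group means as bars. The NeuT arrays (red) are the highest on the upper row and the lowest on the lower row, and on Mme control array 3 stands at 10.26 beside controls 1 and 2 at 5.93.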

How the data were processed

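Biotin-labelled total RNA, amplified with the WT-Ovation Pico system per the labels' protocols, was measured on 15 Affymetrix arrays. Per the submitters' processing notes, the authors used RMA and Affymetrix Expression Console 1.1. The deposited values are log2 intensities. RMA quantile-normalizes arrays together, which can hide a shift shared by most genes. No depth applies to arrays, and the number of arrays limits the precision. Of 35556 probe sets, 21789 had 1 gene, 1621 several and 12146 none in the platform annotation, and only the first were named. Where several served 1 of the 19938 genes (999 genes), the brightest on average was used.

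All 5 groups were fitted as means with limma 3.58.1 (R 4.3.3) and moderated variances, and the control comparison was repeated without control array 3. The code was tested on simulated data. Named genes were every ERBB receptor and ligand, the 15 highest and lowest against control, 10 each way against the other lines, and up to 5 called members per list and direction. The members and the 63 lists (1145 genes) were chosen with earlier results of these data known. Alternatives covered scaling, dim genes, the variance model, samples in the fit, probe set summary and each array left out.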

Additional observations from a re-analysis of the deposited data

Results flagged for a closer look

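On 7 of the named genes the NeuT lines and the mean of the other lines moved in opposite directions from control. Each move had an adjusted p under 0.05 in limma. These genes were chosen for differing in NeuT from control and from each other line group, so passing those tests was a condition of their choice. The move of the other lines' mean from control was not such a condition. NeuT lay above the mean of the Myc, Ras and Src groups by a log2 difference of 3.75 for Tnc, 2.90 for Wfdc2 and 2.45 for Sema6a. It lay below by -3.32 for Vcan, -3.29 for Ccl2, -2.79 for Slpi and -2.54 for Sbsn. On Tnc the controls lay between NeuT and the Myc and Ras lines, with the Src lines close to control. In the same limma fit the Myc lines did not pass against control for Wfdc2 (0.125, adjusted p = 0.345) or Ccl2 (-0.204, adjusted p = 0.361). Both differences had the sign of NeuT. The Ras lines did not pass for Sbsn (-0.005, adjusted p = 0.991). On Sema6a, Vcan and Slpi every other line group moved against NeuT.

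A further 13767 probe sets have no single gene in the annotation and took no part in the comparisons. Of these, 162 were higher and 505 lower in NeuT than in control by the rule used for genes (2-fold and an adjusted p under 0.05).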

How the results depend on the processing

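The counts against control moved by over 1.5 times only with no fold minimum (3022 higher, 2317 lower) and, for lower genes, without dim genes (401). Against the other lines they moved only with no fold minimum (2569 higher, 1615 lower). Leaving out 1 array at a time gave 493 to 633 genes higher and 578 to 703 lower than control, and 291 to 312 higher and 169 to 208 lower than the other lines. With the replicate number as a block, 556 were higher and 626 lower than control, and 301 and 186 against the other lines. Same-numbered NeuT and control arrays did not deviate together (correlations of -0.001, 0.017 and 0.014), so the numbers were not taken as pairs.

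Of 3706 comparisons of 229 named results with an alternative, 3672 kept direction and side of the threshold, 17 lost the call, 3 gained it and 14 changed sign. The 14 concern genes without a call. Krt18 was -0.022 with quantile normalization, -0.125 with array weights, -0.169 without control array 3 (also with raised genes dropped), -0.035 without NeuT array 2 and -0.002 without NeuT array 3. Leaving out 1 array at a time gave -0.169 to 0.12 for Krt18, -0.026 to 0.125 for Krt7, -0.083 to 0.005 for Krt8, -0.016 to 0.05 for Pbsn and -0.659 to 0.096 for Erbb4. Krt7 was -0.026 without control array 3, Krt8 0.021 with centring and 0.005 without control array 2, Nrg4 0.001 with centring, Pbsn -0.016 without control array 1, and Erbb4 0.024 with array weights and 0.096 without control array 3. Epgn lost its call in the fit of the 6 arrays (adjusted p = 0.0611), Erbb3 with quantile normalization (0.0584) and Esrp1 in the fit of the 6 arrays (0.0737). Btc gained a call in that fit (0.006) and with array weights (0.0208), and Egf without control array 2 (0.0474). The cause was not tested. Centring moved the median of all genes from 0.025 to 0.075 and quantile normalization to 0.044. Array background was not measured, which limits folds of dim genes.

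Of list counts of 4 or more with all genes, array weights moved the falls of ephrins and Eph receptors from 5 to 13, of interferon response genes from 4 to 8 and of metalloproteinases from 7 to 13. Centring moved those of tight junction genes from 7 to 4 and of hypoxia targets from 5 to 3. The fit of the 6 arrays moved those of ephrins and Eph receptors to 8, of interferon response genes to 8, of hypoxia targets to 3 and of glutathione genes from 13 to 8. Without dim genes, which leaves fewer genes tested, falls were 7 of 12 in the Wnt list, 3 of 8 in the retinoid list, 1 of 4 for cyclic nucleotide genes, 3 of 5 for luminal markers, 2 of 5 for chemokines, 3 of 5 for hypoxia targets, 4 of 11 for matrix proteins, 2 of 4 for LY6 and PATE genes, 1 of 4 for HOX genes and 4 of 7 for smooth muscle markers, and rises were 3 of 5 for oncofetal genes and 0 of 2 in the BEX list. Counts under 4 moved in other lists too.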
